A study of Mus musculus with 32 samples.

Results

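The mRNA levels of 10 genes of contractile and mural cells were followed: the smooth muscle actin gene Acta2, the actin-binding genes Tagln and Cnn1, the myosin genes Myh11 and Myl9, the filament gene Des, the pericyte genes Rgs5, Cspg4 and Notch3, and the skeletal muscle actin gene Acta1. They were taken by gene name from the deposited count table, 10 of 56748 genes, and 10 of 10 passed the filter on low counts with 16984 genes in all. The list was chosen by reading earlier results of these libraries, and which of their values chose it is not recorded. An earlier comparison of a smooth muscle marker list between cholesterol and control with scramble siRNA is taken as the one used. The changes in that comparison are therefore given as a description, with no p-value. The same holds for each difference of a loading change from that of scramble (interaction), since it contains the scramble change, and it is given as a difference ± SE with no p-value. The comparisons with scramble within a medium share its libraries, and all tests were run with earlier results known.

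The cells were primary white adipocytes from mouse subcutaneous adipose tissue, labelled wild type, and poly(A) RNA was sequenced. Cells were treated with a scrambled siRNA, with an siRNA against Nfe2l1 (siNfe2l1), with an siRNA against Atf3 (siAtf3), or with both target siRNAs. Nfe2l1 encodes a transcription factor that controls proteasome genes, and Atf3 encodes a stress-induced transcription factor. They then had control treatment, or 400 µM cholesterol on the carrier methyl-β-cyclodextrin for 6 h, and each of the 8 groups held 4 libraries called biological replicates. The titles do not say whether control cells had the carrier, so cholesterol and carrier cannot be told apart here.

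Smooth muscle cells and pericytes, together called mural cells, wrap blood vessels, and both are part of adipose tissue. Smooth muscle contracts when myosin pulls on actin filaments, a process switched on by phosphorylation of the myosin regulatory light chain. Many of its genes carry CArG boxes, short A- and T-rich sites bound by serum response factor (SRF) with its partners myocardin and the myocardin-related factors. Fibroblasts and precursors of adipocytes can also make Acta2 and some of these proteins when activated, while Acta1 is the actin of the skeletal muscle sarcomere. A bulk library does not say which cell an mRNA came from, and fewer cells of a type and less RNA per cell cannot be told apart.

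Promoters of 8 of the 10 genes were matched in the RefSeq table (build GRCm38.p6), each spanning 250 bases before to 50 after the start of the gene. Tagln and Myh11 were not matched. Those of Myl9 and Acta1 held a CArG box, against 1.63% of 32851 promoters of the same length. The search covered both strands, and a match is a description of the letters, not a measured binding site. The boxes counted have only A or T between CC and GG. Stretches with another letter there, such as ccttgtaagg in Myl9 and ccatatacgg in Acta1, were not counted. The 2 promoters that hold the box are shown, since their genes changed in opposite directions with cholesterol. Each line gives the 250 bases before the start of the gene, 5′ to 3′ on its own strand, with the box in capitals.
Myl9, chr2:156775214-156775463, plus strand: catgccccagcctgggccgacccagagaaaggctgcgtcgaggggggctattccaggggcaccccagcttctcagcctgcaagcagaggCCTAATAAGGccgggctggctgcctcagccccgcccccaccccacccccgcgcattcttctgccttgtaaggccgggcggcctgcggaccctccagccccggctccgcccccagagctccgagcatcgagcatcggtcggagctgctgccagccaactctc
Acta1, chr8:123894776-123895025, minus strand: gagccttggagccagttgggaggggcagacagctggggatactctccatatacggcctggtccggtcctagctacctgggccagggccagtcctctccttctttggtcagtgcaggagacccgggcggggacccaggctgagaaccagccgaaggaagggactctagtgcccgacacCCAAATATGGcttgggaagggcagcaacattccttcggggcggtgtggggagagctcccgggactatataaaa
The box begins 161 bases before the start in Myl9 and 73 bases before it in Acta1, counted from the start in RefSeq. In the GENCODE vM21 annotation of the same genome, the first base of Acta1 lies 24 bases further downstream and that of Myl9 44 bases further upstream, so these distances hold for the RefSeq starts only. Other starts also differ in GENCODE: those of Des and Notch3 lie 37 and 38 bases downstream, and those of Acta2, Cspg4 and Cnn1 217, 71 and 37 bases upstream. The windows of these genes hold no box of the strict form counted here. That does not speak to boxes with another letter between CC and GG. For Acta2 most of the 250 bases before the GENCODE start lie outside the window and were not searched. The AP-1 word TGANTCA, present in 7.81% of all promoters, and the CRE word TGACGTCA, present in 1.79%, were in 0 of the 8 windows. That says only that these letters are not in these windows.

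Levels are CPM (counts scaled to library size) on library sizes scaled by TMM, listed for libraries 1 to 4 of a group or as mean ± SD (n = 4). Changes are log2 fold changes ± SE from edgeR, and an adjusted p is that of its quasi-likelihood test with Benjamini-Hochberg adjustment over all 16984 genes. A gene is called, and said to rise or fall, at a false discovery rate of 0.05. Where genes are compared with each other, levels are per length, as TPM (counts scaled to gene length and library). In scramble control libraries Acta2 was the highest of the 10 at 725 TPM, followed by Myl9 at 71.3 TPM, Acta1 at 59.9 TPM and Notch3 at 52.6 TPM. Cspg4 and Rgs5 were at 18.8 and 15.7 TPM, Myh11 at 5.31 TPM and Des at 5.12 TPM. Tagln, at 3.98 TPM, and Cnn1, at 2.10 TPM, were the lowest. Acta2 thus stood 183-fold above Tagln, 353-fold above Cnn1 and 137-fold above Myh11 per length. Most exonic bases of Tagln also lie in exons of other genes, as given below. Its level per length, its rank and its ratio to Acta2 are therefore uncertain.

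Of the 10 genes, 4 were higher and 5 lower with cholesterol and scramble siRNA, where 65.2% of all genes tested were called. With siNfe2l1, 3 rose and 5 fell (60.1% of all genes called), with siAtf3 3 rose and 6 fell (58.1%), and with both siRNAs 3 rose and 5 fell (58.7%). The genes were picked with such results known, so nothing is read from these shares. Acta2, Tagln, Cnn1, Myl9 and Notch3 were lower and Des, Cspg4 and Acta1 higher in all 4 comparisons, so the list split between 2 directions. The median change of the 10 lay between -0.56 and -0.42, against medians of 0.01 or less in size over all genes.

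**Figure D1:**
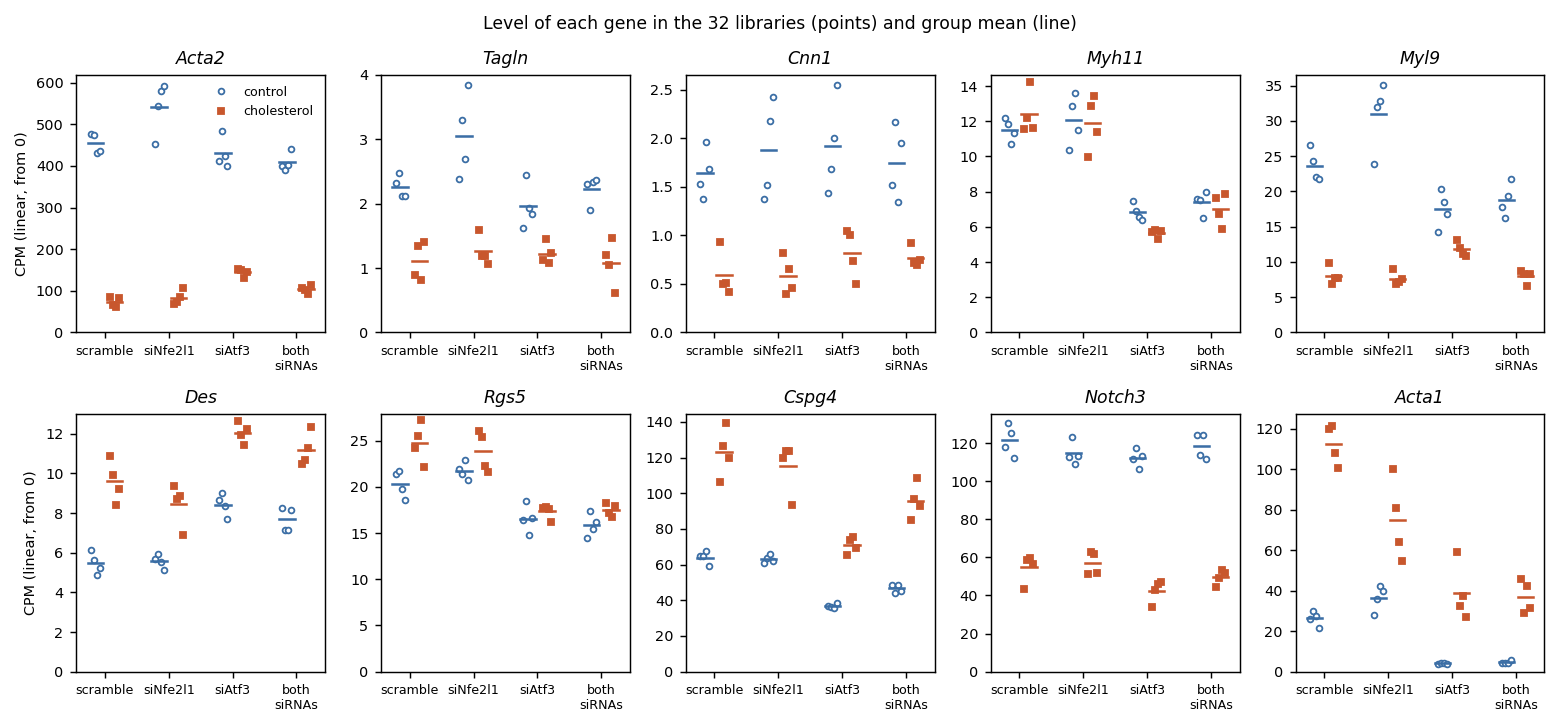
CPM of each gene (vertical axis, linear, from 0) in the 32 libraries, by siRNA treatment (horizontal axis). Open circles are control libraries, filled squares cholesterol libraries, and lines are group means of 4 libraries. Acta2 drops from between 391 and 593 CPM in control libraries to between 62.0 and 153 CPM with cholesterol, while Acta1 is higher with cholesterol under every siRNA.

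**Figure D2:**
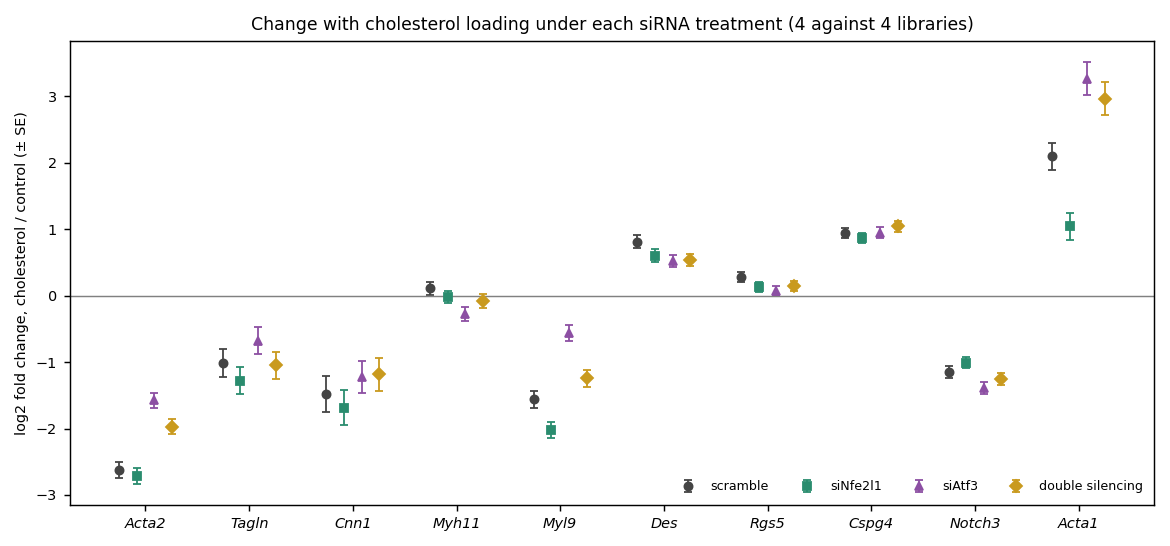
Log2 fold change with cholesterol against control (vertical axis, ± SE of the fit) for each gene (horizontal axis) and siRNA treatment (marker), 4 against 4 libraries each. Acta2, Tagln, Cnn1, Myl9 and Notch3 lie below 0 and Des, Cspg4 and Acta1 above it, and the siAtf3 triangle stands apart for Acta2 and Myl9.

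Acta2 (chr19:34218490-34232990, minus strand, build GRCm39 as are all gene positions from here on) encodes the α-actin of smooth muscle and of activated fibroblasts. It was read at 476, 474, 432 and 437 CPM in scramble control libraries and at 84.6, 65.7, 62.0 and 82.0 CPM with cholesterol. The groups did not overlap, and the level was 6.18-fold lower with cholesterol (log2 fold change -2.63 ± 0.12). With siNfe2l1 the control libraries held 453, 544, 579 and 593 CPM and the cholesterol libraries 67.6, 72.9, 84.4 and 106 CPM (-2.71 ± 0.12, adjusted p = 2.44e-17).

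With siAtf3, Acta2 began at 412, 484, 424 and 401 CPM, and held 153, 149, 131 and 146 CPM with cholesterol. All 4 of these cholesterol libraries were above all 4 scramble cholesterol libraries. The fall with loading was 2.98-fold (-1.57 ± 0.11, adjusted p = 1.4e-12), and the difference from the scramble fall was 1.05 ± 0.16. Within cholesterol Acta2 was 1.97-fold higher with siAtf3 than with scramble (0.97 ± 0.11, adjusted p = 4.49e-08).

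Both siRNAs together gave an intermediate level of Acta2. Control libraries held 400, 391, 402 and 442 CPM, and cholesterol libraries 107, 101, 93.0 and 114 CPM. These cholesterol values lay above those of scramble and below those of siAtf3 alone, with no overlap on either side. The level was 1.41-fold above scramble in cholesterol (0.50 ± 0.11, adjusted p = 0.000675), and the fall with loading was smaller than with scramble by 0.65 ± 0.16. In control medium none of the 3 silencings moved Acta2 past the threshold, with 95% intervals of the log2 change of 0.03 to 0.48 for siNfe2l1, -0.30 to 0.14 for siAtf3 and -0.38 to 0.07 for both. A fit of only the groups compared did call both siRNAs there (-0.15, adjusted p = 0.00394).

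Tagln (chr9:45840917-45847356, minus strand) encodes transgelin, an actin-bundling protein also called SM22α. It was read at 2.26 ± 0.17 CPM in scramble control and 1.11 ± 0.31 CPM in scramble cholesterol libraries, a difference of -1.01 ± 0.21 on the log2 scale, without overlap. The fall was called with siNfe2l1 (-1.28 ± 0.20, adjusted p = 6.78e-07), with siAtf3 (-0.68 ± 0.20, adjusted p = 0.00459) and with both (-1.05 ± 0.20, adjusted p = 3.3e-05). No silencing changed it past the threshold in either medium. In the GENCODE vM21 annotation of build GRCm38, 67.9% of the exonic bases of Tagln also lie in exons of genes on the other strand, the lncRNA Gm48529 and the protease gene Pcsk7. The sources used here do not state whether reads were counted by strand, so reads of Tagln and of these genes may not be told apart. Its counts ran from 17 to 95 per library, and Gm48529 had between 4 and 51.

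Cnn1 (chr9:22010512-22020926, plus strand) encodes calponin 1, which binds actin and inhibits the myosin ATPase. Its level was 1.64 ± 0.25 CPM in scramble control and 0.59 ± 0.23 CPM in scramble cholesterol libraries, or -1.48 ± 0.27 on the log2 scale. It fell with siNfe2l1 (-1.69 ± 0.26, adjusted p = 9.34e-07), siAtf3 (-1.22 ± 0.24, adjusted p = 5.17e-05) and both siRNAs (-1.18 ± 0.25, adjusted p = 8.95e-05). As with Tagln, none of the 6 silencing comparisons was called, and at this depth the errors of Cnn1 in cholesterol were between 0.30 and 0.32. The 3 genes of the thin filament thus fell in all 4 loading comparisons, but per length Acta2 came closer to the others. It was 63.0 ± 18.5 times Tagln and 168 ± 56.4 times Cnn1 in scramble cholesterol libraries. The ratio to Tagln carries the limit of the exons that Tagln shares with other genes.

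Myh11 (chr16:14012399-14109236, minus strand) encodes the myosin heavy chain of smooth muscle, a marker of its mature form. Scramble control libraries held 12.2, 11.8, 10.7 and 11.3 CPM and scramble cholesterol libraries 11.6, 12.2, 14.2 and 11.6 CPM. These groups overlapped, and the change was 0.11 ± 0.10 with a 95% interval of -0.09 to 0.31. Myh11 was the one gene of the 10 whose groups overlapped in this comparison, in which the groups of 57.4% of all genes did not overlap.

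Silencing of Atf3 lowered Myh11 in both media. Control libraries with siAtf3 held 7.48, 6.90, 6.58 and 6.38 CPM (-0.75 ± 0.10 against scramble, adjusted p = 1.68e-07), and cholesterol libraries 5.68, 5.81, 5.32 and 5.74 CPM (-1.14 ± 0.10, adjusted p = 2.46e-11). All 8 lay below every library with scramble or siNfe2l1. Both siRNAs gave 7.41 ± 0.62 CPM in control medium (-0.63 ± 0.10, adjusted p = 5.75e-06) and with cholesterol 7.03 ± 0.91 CPM (-0.82 ± 0.10, adjusted p = 3.39e-08). A further fall with cholesterol under siAtf3 was small (-0.28 ± 0.11, adjusted p = 0.0257) and was lost when any of 5 single libraries was left out: siAtf3 control 1 (-0.21, adjusted p = 0.121) or 2 (-0.25, 0.0671), or siAtf3 cholesterol 1 (-0.26, 0.059), 3 (-0.23, 0.0974) or 4 (-0.27, 0.0545).

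Myl9 (chr2:156617340-156623578, plus strand) encodes a regulatory light chain of myosin, the target of myosin light chain kinase. Scramble control libraries held 26.6, 24.3, 22.0 and 21.8 CPM and scramble cholesterol libraries 9.79, 6.92, 7.66 and 7.76 CPM, 2.95-fold lower (-1.56 ± 0.13). With siAtf3 the corresponding values were 14.3, 20.3, 18.4 and 16.8 CPM, then 13.1, 12, 11.2 and 10.8 CPM. Thus Myl9 with siAtf3 started below scramble (-0.44 ± 0.12, adjusted p = 0.00301) and ended above it (0.55 ± 0.13, adjusted p = 0.000702), without overlap in either medium.

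The fall of Myl9 with loading was 1.48-fold with siAtf3 (-0.57 ± 0.12, adjusted p = 0.00015), smaller than with scramble by 0.99 ± 0.18. With siNfe2l1 it was 4.05-fold (-2.02 ± 0.12, adjusted p = 2.03e-15) and with both siRNAs 2.37-fold (-1.24 ± 0.12, adjusted p = 2.43e-10). With both siRNAs the difference of the fall from that of scramble was 0.32 ± 0.18, and in cholesterol Myl9 stood at 7.96 ± 0.97 CPM with both against 8.03 ± 1.23 CPM with scramble (95% interval of the log2 change -0.29 to 0.27). Calls against scramble in control medium were weak for siNfe2l1 (0.39 ± 0.11, adjusted p = 0.0329) and for both (-0.33 ± 0.12, adjusted p = 0.0318). Both pairs of groups overlapped. The first was lost without scramble control library 2, 3 or 4 or siNfe2l1 control library 2, 3 or 4 (adjusted p from 0.0519 to 0.102). The other was lost without library 1 or 2 of scramble control or of both siRNAs in control medium (adjusted p from 0.0643 to 0.113).

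Des (chr1:75336973-75345223, plus strand) encodes desmin, the intermediate filament protein of muscle and many pericytes. It was higher with cholesterol, at 6.14, 5.66, 4.90 and 5.24 CPM in scramble control and 10.9, 9.94, 8.39 and 9.21 CPM in scramble cholesterol libraries (0.81 ± 0.10). The rise was called with siNfe2l1 (0.60 ± 0.10, adjusted p = 1.84e-06), siAtf3 (0.51 ± 0.09, adjusted p = 7.19e-06) and both (0.54 ± 0.09, adjusted p = 3.44e-06). Des also rose with siAtf3 in control medium, to 8.43 ± 0.57 CPM (0.62 ± 0.10, adjusted p = 2.74e-06), and in cholesterol, to 12.1 ± 0.51 CPM (0.33 ± 0.09, adjusted p = 0.00263). With both siRNAs it rose by 0.49 ± 0.10 in control medium (adjusted p = 0.000181) and by 0.22 ± 0.09 in cholesterol (adjusted p = 0.0431). The last call rested on overlapping groups and was lost without library 3 or 4 of either group (adjusted p from 0.0617 to 0.149). Des was the one gene of the 10 that rose with siAtf3 in both media.

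Rgs5 (chr1:169483070-169523382, plus strand), a regulator that shortens G protein signalling, is a widely used pericyte marker. Scramble control libraries held 21.4, 21.7, 19.8 and 18.6 CPM and scramble cholesterol libraries 24.2, 25.5, 27.3 and 22.2 CPM (0.28 ± 0.07), which did not overlap. No call was made with loading under siNfe2l1 (0.13 ± 0.07), siAtf3 (0.07 ± 0.08) or both (0.14 ± 0.08). Without siNfe2l1 cholesterol libraries 3 and 4 the first of these was 0.24 (adjusted p = 0.0125), and without library 2 of both siRNAs in control the last was 0.19 (adjusted p = 0.0397). Silencing of Atf3 lowered Rgs5 to 16.6 ± 1.54 CPM in control medium (-0.30 ± 0.07, adjusted p = 0.00162) and to 17.3 ± 0.76 CPM with cholesterol (-0.51 ± 0.07, adjusted p = 4.19e-07). Both siRNAs lowered it by similar amounts (-0.36 ± 0.07, adjusted p = 0.000324, and -0.50 ± 0.07, adjusted p = 9.76e-07).

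Cspg4 (chr9:56772317-56807154, plus strand) encodes the NG2 proteoglycan on the surface of pericytes and of some precursor cells. It was read at 64.6, 64.6, 67.5 and 59.2 CPM in scramble control and 106, 126, 139 and 120 CPM in scramble cholesterol libraries, 1.92-fold higher (0.94 ± 0.08). With siAtf3 the levels were 36.8, 36.3, 35.5 and 38.3 CPM in control medium and 65.2, 73.6, 75.3 and 69.1 CPM in cholesterol. All 4 siAtf3 libraries lay below all 4 scramble libraries in each medium, and the decrease was -0.80 ± 0.08 in both (adjusted p = 5.11e-10 in control, 1.69e-10 in cholesterol). The rise with loading under siAtf3 was 0.95 ± 0.08 (adjusted p = 2.3e-12), and its difference from scramble was 0.00 with a 95% interval of -0.22 to 0.23.

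With both siRNAs Cspg4 stood between siAtf3 and scramble, at 46.6 ± 2.40 CPM in control medium (-0.46 ± 0.08, adjusted p = 2.7e-05). With cholesterol it held 95.8 ± 9.88 CPM (-0.36 ± 0.08, adjusted p = 0.000222). In cholesterol this group overlapped with scramble. The rise was called with siNfe2l1 (0.87 ± 0.08, adjusted p = 9.08e-12) and with both (1.04 ± 0.08, adjusted p = 1.41e-13). With siNfe2l1, levels were 63.2 ± 2.19 and 115 ± 14.7 CPM, and neither differed from scramble past the threshold.

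Notch3 (chr17:32339794-32385826, minus strand) encodes the Notch receptor of mural cells, which is needed for arterial smooth muscle to mature. Scramble control libraries held 118, 131, 125 and 112 CPM and scramble cholesterol libraries 43.6, 58.9, 59.7 and 56.6 CPM, 2.22-fold lower (-1.15 ± 0.09). Loading lowered it also with siNfe2l1 (-1.01 ± 0.09, adjusted p = 2.03e-11), siAtf3 (-1.40 ± 0.09, adjusted p = 1.58e-14) and both (-1.25 ± 0.09, adjusted p = 1.69e-13). The 16 control libraries lay between 106 and 131 CPM and the 16 cholesterol libraries between 34 and 62.8 CPM.

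Against scramble, Notch3 was called in 1 of 6 comparisons, lower with siAtf3 in cholesterol at 42.6 ± 5.98 CPM (-0.36 ± 0.09, adjusted p = 0.00132). These groups overlapped, and scaling by library totals alone gave -0.18 (adjusted p = 0.119). A fit of only the groups compared also called siAtf3 in control medium (-0.12, adjusted p = 0.0186). Scramble cholesterol library 1 was the lowest of its group. Without it, both siRNAs were called in cholesterol (-0.23, adjusted p = 0.0268), and the loading change with siAtf3 differed from that of scramble by -0.34. Notch3 and Cspg4, the surface receptor and proteoglycan of pericytes, thus changed in opposite directions with cholesterol, while within groups their log2 levels moved together (residual r = 0.70 over the 32 libraries, a description that also carries differences in library makeup).

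Acta1 (chr8:124618508-124621490, minus strand) encodes the α-actin of skeletal muscle. It was read at 26.2, 30.0, 27.3 and 21.6 CPM in scramble control and at 120, 121, 108 and 101 CPM in scramble cholesterol libraries. These groups were far apart, and the level was 4.28-fold higher with cholesterol (2.10 ± 0.20), against the 6.18-fold lower level of Acta2 in the same libraries. Group means of Acta1 spanned 27.8-fold over the 8 groups, more than those of any other of the 10 genes, with Acta2 next at 7.37-fold.

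In control medium with siAtf3, Acta1 was 6.49-fold lower than with scramble, at 3.58, 4.38, 4.33 and 3.90 CPM (-2.70 ± 0.26, adjusted p = 4.77e-09). Both siRNAs gave 4.42, 4.26, 4.38 and 5.75 CPM (-2.47 ± 0.25, adjusted p = 2.69e-08). No library of these groups reached 6 CPM, while scramble and siNfe2l1 control libraries lay between 21.6 and 42.2 CPM. Loading raised Acta1 to 59.1, 32.2, 37.4 and 27.2 CPM with siAtf3 (9.60-fold, 3.26 ± 0.25, adjusted p = 2.47e-11) and to 45.8, 28.9, 42.2 and 31.2 CPM with both (7.79-fold, 2.96 ± 0.25, adjusted p = 9.13e-11).

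These cholesterol levels were still below scramble, by -1.53 ± 0.20 with siAtf3 (adjusted p = 4.5e-07) and -1.60 ± 0.20 with both (adjusted p = 3.67e-07). They lay close to the control level of the scramble group, in part overlapping with it. The rise with siAtf3 was larger than with scramble by 1.17 ± 0.33 on the log2 scale, and that with both by 0.87 ± 0.32. Ordered by Acta1, scramble cholesterol was highest and did not overlap with the next group. Then came siNfe2l1 cholesterol, siAtf3 cholesterol, both siRNAs in cholesterol, siNfe2l1 control and scramble control, each overlapping with its neighbour. Both control groups with siAtf3 were lowest and overlapped with each other alone.

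With siNfe2l1 Acta1 held 27.8, 35.8, 42.2 and 39.7 CPM in control medium and 99.9, 80.9, 64.1 and 54.7 CPM in cholesterol, a rise of 1.04 ± 0.20 (adjusted p = 6.32e-05). Against scramble it was lower in cholesterol (-0.59 ± 0.19, adjusted p = 0.0314). Libraries 3 and 4 of this group also stood apart on the first principal component of all genes, at 27.7 and 24.0, against 34.3 and 40.5 for its other 2 and 37.1 to 43.6 for scramble cholesterol. Without them the change was -0.32 (adjusted p = 0.449). It was lost too without scramble cholesterol library 1 (-0.56, adjusted p = 0.0779) or 2 (-0.56, 0.0605), or siNfe2l1 cholesterol library 3 (-0.53, 0.0952) or 4 (-0.48, 0.11) alone. The difference of the rise from that of scramble was -1.06 ± 0.28, and -1.24 without siNfe2l1 cholesterol library 1.

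Acta1 and Acta2 encode nearly the same protein, but their annotated transcripts share few long words. Whether reads of the pair were always told apart in the counting was not tested. Of the 50-base words of their transcripts in the same GENCODE annotation, 1.83% of those of Acta1 and 0.326% of those of Acta2 were shared with another actin gene, and 0 were shared between the pair. Per length, Acta2 was 12.2 ± 1.5 times Acta1 in scramble control libraries and 0.461 ± 0.088 times in scramble cholesterol libraries. Every scramble cholesterol library, with ratios of 0.494, 0.379, 0.402 and 0.569, had more mRNA of the skeletal muscle than of the smooth muscle actin gene.

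With siAtf3 the order of the pair was kept. The ratio of Acta2 to Acta1 was 74.6 ± 5.35 in control and 2.81 ± 0.85 in cholesterol libraries, and with both siRNAs it was 61.4 ± 5.10 and 2.05 ± 0.53. All 8 of these cholesterol libraries were above 1. With siNfe2l1 the ratio was 10.5 ± 0.73 in control, and 0.474, 0.631, 0.922 and 1.35 in cholesterol, so that 1 of 4 libraries was above 1. Summed over the 6 actin genes, per-length levels were 4791 ± 245 TPM in scramble control and 4487 ± 122 TPM in scramble cholesterol libraries. The share of Acta2 in that sum was 15.1 ± 0.46% and 2.29 ± 0.34%, and that of Acta1 1.248 ± 0.13% and 5.00 ± 0.37%.

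**Figure D3:**
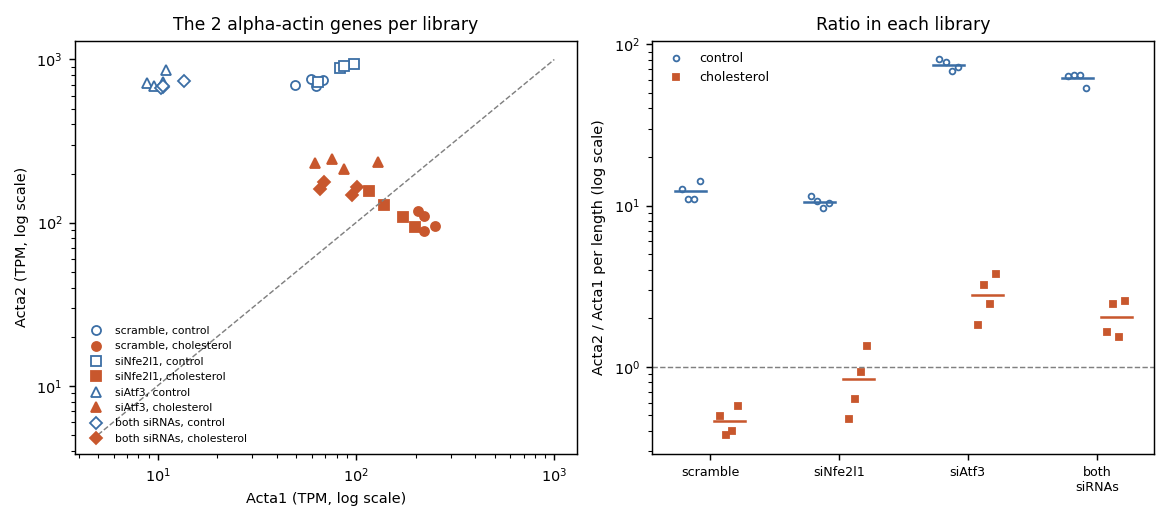
Left, Acta2 against Acta1 in TPM in each of the 32 libraries (both axes logarithmic), with the dashed line at equal levels. Right, the ratio of Acta2 to Acta1 per length (logarithmic axis) by siRNA treatment, with points for libraries, lines for group means and the dashed line at 1. The 4 scramble cholesterol libraries lie below the dashed line, and the siAtf3 and double silencing cholesterol libraries above it.

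Acta1 was set beside the other genes of the sarcomere. Of 21 listed, 12 passed the filter, and 6 of these were lower with cholesterol and scramble siRNA, a share not above the 65.2% of all genes called there. All 12 fitted changes were below 0 in that comparison, from -0.03 ± 0.19 for the troponin gene Tnnc1 downwards. The Z-disc gene Actn3 changed by -0.83 ± 0.19, the thin filament ruler gene Neb by -1.25 ± 0.31 and the titin gene Ttn by -1.08 ± 0.30. With loading under the other siRNA treatments some fitted changes were above 0, none of them called. Of the 12, 5 fell with siNfe2l1 (60.1% of all genes called), 7 with siAtf3 (58.1%) and 5 with both (58.7%). Of 9 skeletal muscle markers, the defining creatine kinase gene Ckm had between 0 and 2 counts and the fast myosin gene Myh4 between 0 and 3 counts in any library. Their summed level was between 4.205 and 7.27 CPM in scramble control and between 2.62 and 3.82 CPM in scramble cholesterol libraries. With siAtf3 in control medium that sum lay between 5.80 and 7.84 CPM. Of the 12 tested sarcomere genes, 1 rose and 1 fell with siAtf3 in control medium (36.3% of all genes called). These were the myosin light chain genes Mylpf (1.30 ± 0.33, adjusted p = 0.00163) and Myl1 (-0.83 ± 0.15, adjusted p = 1.73e-05). In cholesterol 0 rose and 2 fell (50.4%). The source of the Acta1 mRNA was not tested. The sum of 4 cardiac markers was at most 1.16 CPM in any group.

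Silencing of Nfe2l1 alone changed few of the 10 genes: 1 rose in control medium (5.99% of all genes called) and 1 fell in cholesterol (19.9%), and both calls were lost in other settings, as given above. Silencing of Atf3 raised 1 and lowered 5 in control medium (36.3%), and raised 3 and lowered 5 in cholesterol (50.4%). Both siRNAs raised 1 and lowered 5 in control medium (27.2%), and raised 2 and lowered 4 in cholesterol (44.7%). Levels did not overlap between the groups compared for 6 of the 10 genes with siAtf3 in control medium (41.3% of all genes) and 7 in cholesterol (40.9%). With both siRNAs they did not overlap for 5 in control medium (33.7%) and 4 in cholesterol (37.8%). These comparisons share the scramble libraries, so they do not bear on each other independently.

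The interaction passed the threshold for Acta2, Myl9 and Acta1 with siAtf3, 3 of 10 genes against 15.3% of all genes, and for Acta2 with both siRNAs, 1 of 10 against 13.7%. Nothing is read from these counts, since each interaction contains the scramble change taken to have chosen the list. With siNfe2l1 edgeR called 0 of 10, against 0.247% of all genes. There 2 of 10 had an unadjusted p under 0.05, and the DESeq2 Wald test and limma-voom each called 1. Of the 3 genes with siAtf3, all had a positive interaction: a smaller fall for Acta2 and Myl9, and a larger rise for Acta1.

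**Figure D4:**
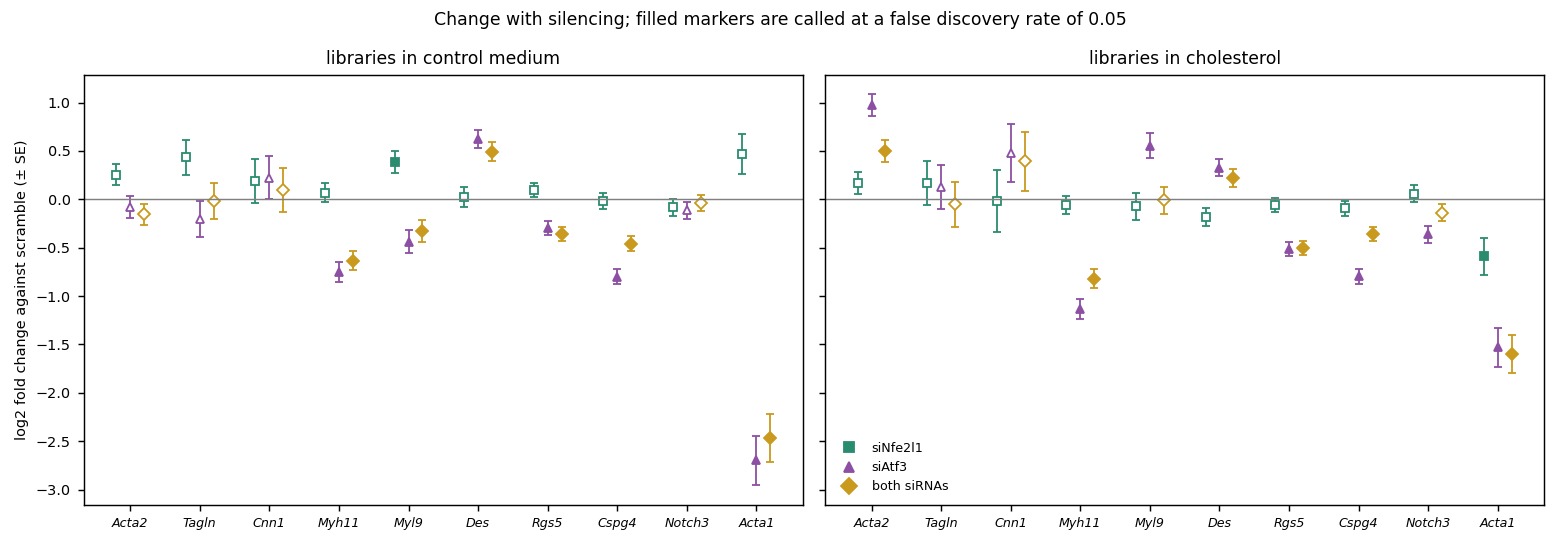
Log2 fold change against scramble siRNA (vertical axis, ± SE of the fit) for each gene (horizontal axis) in control medium (left) and cholesterol (right), 4 against 4 libraries. Squares are siNfe2l1, triangles siAtf3 and diamonds both siRNAs, filled where called. Acta1, Myh11, Cspg4 and Rgs5 lie below 0 with siAtf3 in both panels, Des above it in both, and Acta2 is called above 0 with siAtf3 and with both siRNAs in the cholesterol panel.

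Of 15 other genes of the smooth muscle contractile apparatus, 14 passed the filter, and 9 were lower and 3 higher with cholesterol and scramble siRNA, where 65.2% of all genes were called. The tropomyosin gene Tpm2 changed by -1.94 ± 0.09, the leiomodin gene Lmod1, which seeds actin filaments, by -2.91 ± 0.21, and the smooth muscle γ-actin gene Actg2 by -2.59 ± 0.33. With siAtf3, 6 of 14 fell in control medium (36.3% of all genes called in either direction), among them the caldesmon gene Cald1 (-0.86 ± 0.05, adjusted p = 3.5e-15) and the myosin light chain kinase gene Mylk (-0.53 ± 0.09, adjusted p = 5.8e-06). In cholesterol 4 rose and 4 fell with siAtf3 (50.4%). The interaction was positive and past the threshold for 4 of 14 (15.3% of all genes in either direction). These were the Z-band gene Ldb3 (1.59 ± 0.14), Mylk (0.88 ± 0.12), Lmod1 (1.03 ± 0.30) and Cald1 (0.27 ± 0.08). Nothing is read from this count, since each interaction contains the scramble change taken to have chosen the list. Mylk, whose kinase acts on the product of Myl9, had an interaction of the same sign as Myl9, which is a description only.

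Of 16 other pericyte genes, 12 were lower and 3 higher with cholesterol and scramble siRNA, against 65.2% of all genes called. The guanylate cyclase subunit gene Gucy1a1 changed by -3.36 ± 0.13, the PDGF receptor gene Pdgfrb, which recruits pericytes to vessels, by -0.75 ± 0.06, and the aminopeptidase gene Anpep by 0.90 ± 0.07. With siAtf3, 3 fell and 1 rose in control medium (36.3% of all genes called) and 7 fell and 2 rose in cholesterol (50.4%). Pdgfrb fell by 0.86 ± 0.06 in control medium (adjusted p = 1.9e-13) and by 1.61 ± 0.07 in cholesterol (adjusted p = 1.1e-20), and the adhesion gene Mcam fell by 0.47 ± 0.05 and 0.51 ± 0.05 (adjusted p = 5.8e-09 and 7.6e-10). Pdgfrb, Mcam, Rgs5 and Cspg4 were lower with siAtf3 in both media, while other pericyte genes went the other way. The transcription factor gene Tbx18 rose in control medium (0.31 ± 0.07, adjusted p = 0.00069), and in cholesterol the potassium channel subunit gene Abcc9 (0.22 ± 0.09, adjusted p = 0.044) and the metalloreductase gene Steap4 (0.57 ± 0.19, adjusted p = 0.014) rose. The channel gene Kcnj8 was called in neither medium (0.27 ± 0.14 and 0.08 ± 0.17).

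Of 12 genes of the Notch pathway, which signals from ligands on one cell to receptors on its neighbour, 7 were lower and 2 higher with cholesterol and scramble siRNA, against 65.2% of all genes called. The ligand genes Dll4 and Jag2 changed by -2.64 ± 0.17 and -1.72 ± 0.10, and the target genes Hey1 and Heyl by -1.27 ± 0.07 and -1.78 ± 0.19, as the receptor gene Notch3 did. Rbpj, the DNA-binding partner of the receptors, changed by 1.69 ± 0.07. With siAtf3, 5 of 12 fell in control medium (36.3% of all genes called) and 6 fell and 2 rose in cholesterol (50.4%). Jag1, a ligand that acts on mural cells, fell by 0.51 ± 0.07 and 0.81 ± 0.07 (adjusted p = 2.1e-07 and 6.4e-12).

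Of 24 SRF coactivator and cytoskeletal genes, 23 passed the filter, and 10 were higher and 11 lower with cholesterol and scramble siRNA, against 65.2% of all genes called. Srf itself changed by 0.85 ± 0.07, and the cytoskeletal gene Cnn2, a relative of Cnn1, by -1.30 ± 0.06. With siAtf3, 11 fell and 3 rose in control medium (36.3% of all genes called) and 15 fell and 2 rose in cholesterol (50.4%), among them the focal adhesion gene Zyx (-0.48 ± 0.06 and -0.78 ± 0.06, adjusted p = 3.6e-08 and 3.7e-13). The myocardin gene Myocd was at 0.13 ± 0.18 CPM in scramble control libraries. Of 16 genes of the TGF-β pathway, which can induce Acta2 in fibroblasts, 10 were lower and 5 higher with cholesterol and scramble siRNA. In that comparison 65.2% of all genes were called. The ligand gene Tgfb3 changed by -2.72 ± 0.10. With siAtf3 12 fell in control medium (36.3% of all genes called) and 14 fell and 2 rose in cholesterol (50.4%). Among those that fell in control medium was Ltbp2, which codes for a matrix protein of the latent TGF-β binding protein family (-0.85 ± 0.06, adjusted p = 1.2e-13). In cholesterol Smad3, a signal transducer of the pathway, fell (-0.70 ± 0.06, adjusted p = 9.8e-13).

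Markers of other cells moved in the same libraries. The summed level of 7 fibroblast and precursor markers had a median of 17852 CPM in scramble control and 5581 CPM in scramble cholesterol libraries, and 11284 and 2602 CPM with siAtf3. That of 7 pericyte markers, which count Rgs5, Cspg4 and Notch3, was 614, 440, 417 and 231 CPM in the same order. That of 6 endothelial markers was 624, 319, 478 and 245 CPM, and that of 6 macrophage markers 183, 111, 300 and 132 CPM. Adipocyte markers, 10 in number, summed to 17448, 20753, 14299 and 16922 CPM. Each of these defining genes of the labelled cell type was read in every library, with Lep lowest at 34 counts or more. Lpl was at 7867 CPM in scramble control and 4512 CPM in siAtf3 control libraries. In that comparison 4 of the 10 fell and 0 rose (36.3% of all genes called). Pdgfrb was at 376 CPM in scramble control libraries, the largest part of the pericyte sum. Lyz2 was at 91.3 CPM there and at 188 CPM with siAtf3. Most of the fibroblast and precursor sum came from Col1a1 and Col3a1, at 9861 and 7333 CPM in scramble control libraries. With siAtf3 in control medium 3 of its 6 tested genes fell and 1 rose, where 36.3% of all genes were called. The gene that rose was Pdgfra (0.24 ± 0.07, adjusted p = 0.0033). Of the 6 macrophage markers, 2 rose and 1 fell with siAtf3 in control medium (36.3% of all genes called). In cholesterol 1 rose and 3 fell (50.4%). Lyz2 rose in both media (1.04 ± 0.14 and 0.72 ± 0.14, adjusted p = 7.3e-07 and 0.0001). Csf1r fell in both (-0.53 ± 0.10 and -0.99 ± 0.13, adjusted p = 0.0001 and 4.6e-08). No marker of these lists was at 0 in every library. Their part in the changes of the 10 genes was not tested.

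Genes whose 8 group means were most like those of Acta2 were Dzip1l and Glis2 (Pearson r of log2 CPM 0.997 and 0.996), and for Notch3 they were Adprh and Prickle1 (both 0.998). For Cspg4 they were Capn2 and Rapgef1 (0.997 and 0.996), for Myl9 Itga1 and Limk2 (0.988 and 0.986), and for Acta1 Alg11 and U2af1 (0.987 and 0.983). The pairs for Myh11 were Pdcd5 and Zmiz1 (0.995 and 0.994), for Rgs5 Map4k5 and Eid2 (0.991 and 0.988) and for Des Sf3a2 and Retreg2 (0.994 and 0.991). These were picked from all such genes over 8 points that share the division by medium, and they carry no p-value. Within groups, residual log2 levels were related between Acta2 and Myl9 (r = 0.52), Cnn1 and Myl9 (r = 0.51) and Cnn1 and Acta1 (r = 0.49), and went opposite ways for Acta2 and Cspg4 (r = -0.64), Cnn1 and Notch3 (r = -0.62) and Myl9 and Notch3 (r = -0.49). Each is over the same 32 libraries, out of 45 pairs computed.

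The libraries held 23457384 to 33828418 counts each. The siRNAs left 15.2% of the Nfe2l1 level of scramble in control medium and 14.7% in cholesterol with siNfe2l1, and 23.4% and 19.3% with both. Atf3 was left at 37.8% and 10.3% with siAtf3 and 57.3% and 12.8% with both. Its level was 26.8 ± 2.43 CPM in scramble control and 398 ± 129 CPM in scramble cholesterol libraries. With siAtf3 it was 10.1 ± 0.78 and 40.9 ± 7.88 CPM, and with both 15.3 ± 1.41 and 50.8 ± 2.99 CPM. In cholesterol the mean Atf3 level of both silenced groups was thus above that of scramble control. The first principal component held 80.2% of the variance of the 1000 most variable genes and parted the media.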

How the data were processed

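Poly(A) RNA of 32 libraries in 8 groups of 4 was sequenced. Per the submitters' processing notes, fastp, HISAT2 2.0.5 and featureCounts 1.5.0-p3 were used with build GRCm39. The authors deposited raw counts per gene, with no scaling, and a gene length in bases. Column names were matched to sample titles, and an added C was read as cholesterol. Strandedness of the counting is not given in the sources used here.

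In R 4.3.3, genes were filtered by group with filterByExpr of edgeR 4.0.16 (minimum count 10, minimum total 15), and scaled by TMM (factors 0.886 to 1.10). A robust quasi-likelihood fit of the 8 group means left 24 residual degrees of freedom for 13 contrasts. The error thus rests on all 8 groups. TPM were computed from counts and deposited lengths. With totals of 23457384 to 33828418 counts, genes near 1 CPM rest on few counts. Chi-square tests over genes found all 48 within-group pairs to differ beyond counting error (value per degree of freedom 2.62 to 40.5). The pipeline was tested on simulated data.

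The 10 genes and the lists were chosen with earlier results of these data known. Named were the 10 genes, Nfe2l1 and Atf3, up to 3 called genes per list and comparison with the smallest adjusted p, and the 2 protein-coding genes (average log2 CPM of at least 2) most like each member. The text prints a part of these, and 1 is not reported here. Outside this rule, and after their values were seen, the changes with cholesterol and scramble of Actg2, Pdgfrb, Anpep, Dll4, Heyl, Ttn and Tnnc1, the interaction of Lmod1, the changes with siAtf3 of Tbx18, Abcc9, Steap4 and Kcnj8 and the level of Myocd were added. The change with siAtf3 of Pdgfra and the levels of Col1a1, Col3a1, Lpl, Lep, Pdgfrb and Lyz2 were added in the same way. Same-numbered libraries deviated together in siAtf3 against scramble in cholesterol, where all 4 correlations of deviations from the group means were above 0.1 (0.102 to 0.286). In each other comparison at least 1 was below. The largest single values were in siNfe2l1 against scramble in cholesterol (0.416 and 0.396, beside 0.11 and -0.102). With both siRNAs against scramble in cholesterol all 4 were above 0 (0.0588 to 0.1345). The labels give no shared animal or day.

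Alternatives were DESeq2 1.42.0 size factors and Wald test, limma-voom (limma 3.58.1), no filter, only the groups compared, library totals, a block for replicate number, and each library left out in turn. Leaving out siNfe2l1 cholesterol libraries 3 and 4, or the 8 libraries numbered 1, was added after the data were seen.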

Additional observations from a re-analysis of the deposited data

Results flagged for a closer look

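Of 80 sets of 4 libraries, 1 gene in 1 group each, 4 held a library far from its others, where about 5% would by chance. Tagln was at 1.904 CPM in library 2 of both siRNAs in control medium, against 2.305 to 2.371 CPM in the other 3. Rgs5 was at 16.21 CPM in siAtf3 cholesterol library 4, against 17.62 to 17.81 CPM. Cspg4, the pericyte proteoglycan gene, was at 93.36 CPM in siNfe2l1 cholesterol library 4, against 119.7 to 123.9 CPM, and this library was also the lowest of its group for Acta1. Acta1 was at 5.746 CPM in library 4 of both siRNAs in control medium, against 4.257 to 4.424 CPM.

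The change with cholesterol differed between siRNA treatments by a test of the interaction in edgeR for 4 results, given as differences of log2 fold changes from scramble. With siAtf3 these were 1.054 for Acta2, 0.9918 for Myl9 and 1.1668 for Acta1. With both siRNAs it was 0.6525 for Acta2. All 4 contain the change with scramble that is taken to have chosen the list and share its libraries, so they are a description and no independent evidence.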

How the results depend on the processing

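Of the 130 changes of members (10 genes, 13 contrasts), each that was called kept its direction in every setting tried, while some uncalled changes near 0 changed sign. With the replicate block all 130 kept their call, so pairing by number changed no call (in siAtf3 against scramble in cholesterol, 8 genes were called with and without it). Library totals gave medians of all genes of up to 0.17, for siAtf3 against scramble in cholesterol (-0.02 with TMM). For loading with scramble they gave -0.12 (2e-04 with TMM). They ended 3 calls: Rgs5 with siAtf3 in control (-0.16, adjusted p = 0.0681), Myl9 with both in control (-0.23, 0.12) and Notch3 with siAtf3 in cholesterol. Of 1280 values without 1 library, 23 lost a call and 4 gained one. The members called with siNfe2l1 against scramble in control went from 1 to 0 with no filter or only the groups compared, and lay between 0 and 1 without 1 library. In cholesterol they went from 1 to 0 with only the groups compared or without siNfe2l1 cholesterol libraries 3 and 4, and between 0 and 1 without 1 library. The interaction of siNfe2l1 went from 0 to 1 (Acta1) with DESeq2 or limma-voom, to 2 (Acta1, -1.30, and Myl9, -0.61) without the 8 libraries numbered 1, and between 0 and 1 without 1 library. That of both siRNAs went from 1 to 2 (Acta1 added) with library totals, DESeq2 or only the groups compared. The cause of these shifts was not tested. Depth limits Tagln, with 17 to 95 counts per library, and Cnn1. The exons that Tagln shares with other genes limit its level too.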
